A study of Ovis aries with 3 samples.

Results

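The expression of cell cycle genes was examined in single cells of whole sheep embryos. The list held 42 genes of the division cycle chosen by name, and 33 of them were listed by symbol among the 26478 genes of the count tables. By role these were 5 of 5 G1 cyclins, 9 of 10 S phase genes and 19 of 27 mitotic genes. The 9 names without a matching symbol were *RRM2*, *CCNB1*, *BIRC5*, *BUB1B*, *UBE2C*, *MKI67*, *CENPE*, *CENPF* and *NUSAP1*, and these were not analysed here. The genes were chosen by name and function, with earlier results of these data known, and the rule itself uses no measured value.

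Cells were compared among 3 droplet libraries, 1 for each condition. E19 HSTS was an embryo of the Hulunbuir short-tailed sheep at embryonic day 19, a breed whose genotyped animals in the study all carried both copies of the short-tail allele of *T*. E19 HS was an embryo of the Hu sheep at day 19, with the wild-type allele, and E16 HS came from the same breed at day 16. For E16 HS the sources differ on the number of embryos, and whether several were pooled in the library could not be settled. Lists of 3 values below follow this order, HSTS first and day 16 last, and lists of 2 follow it without day 16 unless the libraries are named. Breed and allele cannot be told apart, and with 1 library a condition there is no test between libraries.

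The division cycle is driven by cyclins that rise and fall and by the kinases they activate. D and E cyclins carry a cell through G1, the minichromosome maintenance (MCM) helicase and the enzymes of nucleotide supply act in S phase, and CDK1 with A and B cyclins starts mitosis, in which kinesins and the Aurora and Polo kinases build and split the spindle. Most cells of an early embryo divide, while neurons and skeletal muscle cells leave the cycle as they mature.

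After filtering, 9618, 10629 and 11329 cells of the 3 libraries were kept, with a median of 8675, 6900 and 9046 UMIs (unique molecular identifiers, each a counted transcript molecule) per cell. The libraries shared 121 cell barcodes, each found in more than 1 library. Cells were put into a group where they held at least 3 markers of 1 list and more than of any other list. This gave 2571, 1360 and 1919 erythroid-like cells, 668, 918 and 313 neural progenitor-like cells, and 1915, 2403 and 3150 mesenchyme-like cells. Smaller groups were the neuron-like cells with 188, 216 and 23, the somite-like cells with 65, 32 and 54, and the muscle-like cells with 49, 41 and 1. Red blood cells had been lysed before capture, which can set the erythroid share. No group's own list was absent, but *NKX3-2* was at 0 in all somite-like cells and *MYOD1* was at 0 in the muscle-like cells of E19 HS. The E16 HS neuron-like cells carried less of their own markers, with a sum of 2689 UMIs per 1000000 UMIs (CPM) over 9 genes against 9811 and 9735 in E19 HSTS and E19 HS, and more of the progenitor markers, with 416.8 CPM against 283.8 and 319.7. Below, groups are called by these names without the ending.

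Mitotic genes stood higher in neural progenitors, somite cells and mesenchyme than in neurons, muscle and, per UMI, erythroid cells. The 19 mitotic genes together held 3738, 3074.5 and 3401 CPM in the neural progenitors of the 3 libraries. In somite cells they held 3201, 2533 and 4499.6 CPM, and in mesenchyme 3326, 2683.5 and 2716 CPM. In neurons the sums were 1279.8, 853.5 and 2241 CPM, and in muscle they were 995 CPM in E19 HSTS and 502 CPM in E19 HS. In each of the 3 libraries the neuron sum lay below that of the neural progenitors, and in both E19 libraries the muscle sum lay below that of the somite cells. The 95% intervals of these sums, which here and below cover counting error only, did not overlap in any of these pairs.

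S phase genes were lower in the same groups. The 9 genes held 681, 574 and 728 CPM in the neural progenitors, and 679, 531 and 646 CPM in mesenchyme. In neurons they held 301, 272 and 635 CPM, and in muscle 206 and 195.5 CPM. The E16 HS neurons stood nearer to their progenitors than the E19 neurons did, and their 23 cells gave an interval of 529 to 757 CPM that overlapped the 699 to 758 CPM of the progenitors.

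**Figure D1:**
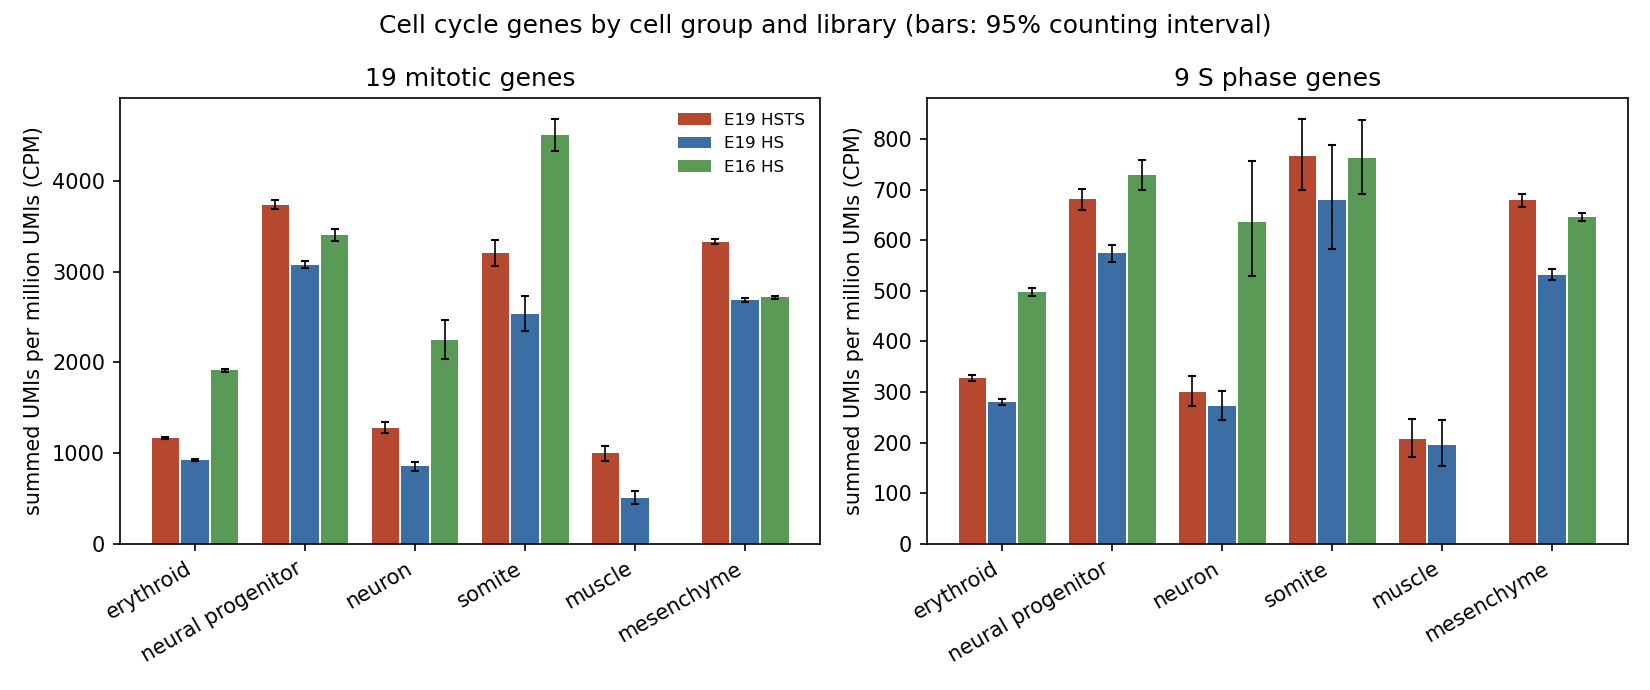
Summed expression of the 19 mitotic genes (left) and the 9 S phase genes (right) as UMIs per 1000000 UMIs on the vertical axis, for 6 marker-defined cell groups on the horizontal axis and 3 libraries by colour. Lines are exact 95% counting intervals, and muscle in E16 HS, with 1 cell, is not drawn. Neurons and muscle stand below progenitors and somite cells in each library drawn, for example 853.5 against 3074.5 CPM of mitotic genes in E19 HS.

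Cell groups were compared with the UMIs of each group summed per library, so that libraries and not cells were the replicates, by edgeR's quasi-likelihood test with library as a block. In neurons against neural progenitors, 30 of the 32 cell cycle genes tested were lower and 0 were higher at an adjusted p under 0.05. Over all 10043 genes tested, 9.4% were lower and 9.86% higher. The median log2 difference was -1.47 over the cell cycle genes and -0.04 over all genes. All 19 mitotic genes passed, as did 8 of the 9 S phase genes and 3 of the 4 G1 cyclins tested. At an unadjusted p under 0.05, where the share of all genes was not counted, all 32 were lower and 0 higher. DESeq2 called 27 lower and 0 higher, where 6.39% of all genes were lower and 12.1% higher.

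The largest drop was that of *ECT2*, the exchange factor that starts the cleavage furrow. It held 53.7, 37.7 and 43.8 CPM in the neural progenitors and 11.9, 4.72 and 20.3 CPM in neurons. Every neuron value was below every progenitor value, and the gene fell by 2.35 on the log2 scale (SE 0.34, adjusted p = 2.8e-05 by edgeR, 3 libraries in each group). The 23 E16 HS neurons held 441 UMIs over all 19 mitotic genes, so their low CPM values here and below rest on few UMIs. *BUB1*, a kinase of the spindle checkpoint, held 140.5, 92.5 and 117 CPM in progenitors and 31.3, 16.5 and 40.7 CPM in neurons. It fell by 2.25 (SE 0.24, edgeR adjusted p = 4.8e-07), again without overlap of the groups. *KIF2C*, a kinesin that shortens microtubules at centromeres, held 73.2, 56.8 and 60.8 CPM in progenitors and 17.9, 11 and 15.3 CPM in neurons, and fell by 2.21 (SE 0.24, edgeR adjusted p = 8.5e-07).

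*TOP2A* (ENSOARG00020007860), which untangles replicated chromosomes, was among the genes with the most UMIs. It held 1278, 950.5 and 1033 CPM in the progenitors, and 425, 237 and 701 CPM in neurons. The E16 HS neurons were the highest of the 3 and still below every progenitor library. The gene fell by 1.48 (SE 0.23, edgeR adjusted p = 7.2e-05). *CDK1* (ENSOARG00020024130), the kinase of mitotic entry, held 51.1, 40.1 and 52.8 CPM in progenitors and 16.4, 15 and 40.7 CPM in neurons. It fell by 1.43 (SE 0.29, edgeR adjusted p = 0.00093), while the E16 HS neurons lay within the range of the progenitors.

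The smallest drops were those of *CCND2* and several S phase genes, but *TYMS*, also of S phase, fell by 1.63 (SE 0.31). *CCND2*, the D cyclin with the most UMIs in these embryos, held 225, 207 and 221 CPM in progenitors and 151, 122 and 274.5 CPM in neurons, so that the groups overlapped, with a log2 difference of -0.49 (SE 0.19, edgeR adjusted p = 0.079). *MCM7* and *MCM3*, both subunits of the replicative helicase, fell by 0.71 and 0.91 (SE 0.18 and 0.23). *MCM2*, of the same helicase, held 19.7, 16.1 and 15.2 CPM in progenitors and 11.2, 4.72 and 25.4 CPM in neurons, a difference of -0.96 with an edgeR adjusted p of 0.054. *PCNA*, the clamp that holds DNA polymerase on its template, fell by 0.92 (SE 0.26), with 68.1, 45.6 and 69.5 CPM in progenitors and 26.1, 26 and 81.3 CPM in neurons. For *MCM2*, *CCND2* and *PCNA* the E16 HS neurons held the highest neuron value, above that of the E16 HS progenitors. *CCNE1* and *CCNE2*, the E cyclins that activate CDK2, fell by 1.58 and 1.65 (SE 0.56 and 0.54), from at most 7.30 CPM in progenitors.

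The count changed with the libraries used, as did the share of all genes called. Without E16 HS, whose neurons were few and held more progenitor markers, 31 genes were lower, where 13.1% of all genes were lower. Without E19 HSTS the count was 19, where 2.45% of all genes were lower. Without E19 HS it was 16, where 1.82% of all genes were lower. In each case 0 cell cycle genes were higher, and their median log2 differences were -1.605, -1.39 and -1.21 in that order. What the few E16 HS neurons contributed beyond this was not tested.

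Other genes of the cycle, in lists of the same phases, were counted in the same fit. Of 30 further S phase genes 19 were lower and 0 higher, and of 27 further mitotic genes 21 were lower and 1 was higher. The gene that rose was *JPT1*, by 0.61 (SE 0.21). *FOXM1*, the transcription factor of the mitotic program, fell by 3.33 (SE 0.88), 1 of 4 called of 11 cyclin D partners and E2F genes. Of 9 cell cycle brakes tested 3 were higher and 0 lower. These were *CDKN1C* and *CDKN1B*, both inhibitors of cyclin-dependent kinases, by 1.55 (SE 0.26) and 1.05 (SE 0.34), and *RB1*, the retinoblastoma protein that holds back E2F, by 1.23 (SE 0.32).

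**Figure D2:**
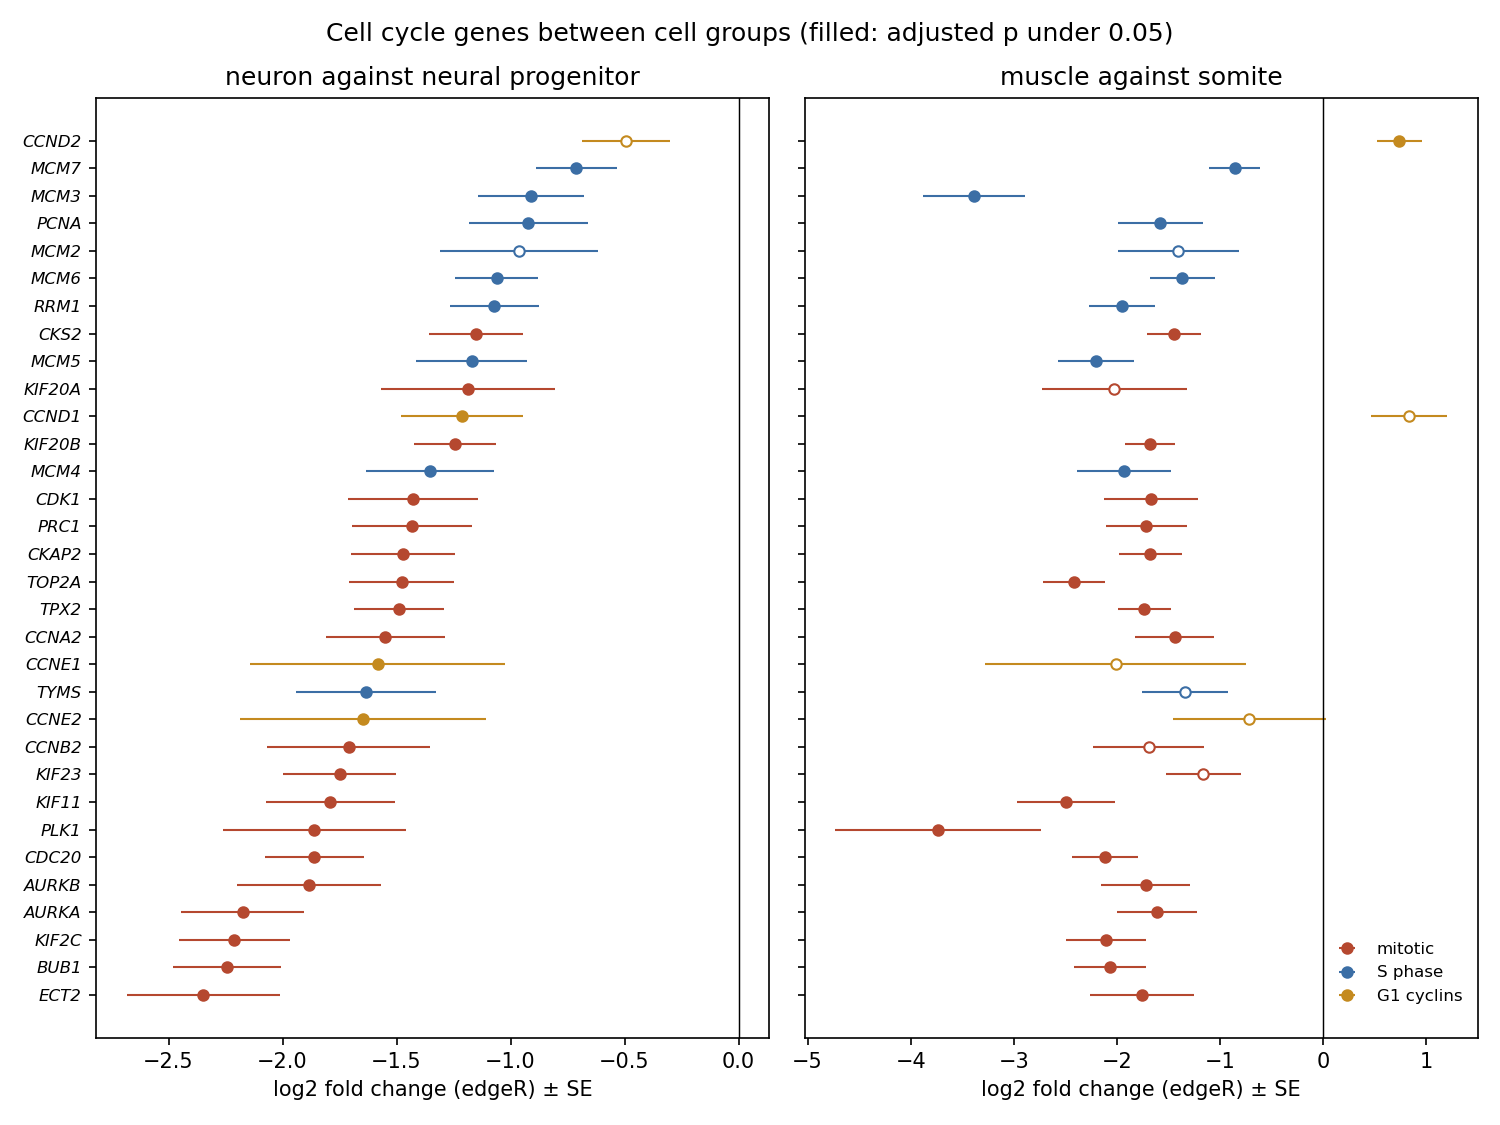
Log2 fold change from edgeR with its standard error for the 32 cell cycle genes tested, neurons against neural progenitors (left) and muscle against somite cells (right), in colours by role. Filled points passed an adjusted p of 0.05. On the left all 32 points lie below 0 and 30 are filled, and on the right *CCND2*, at 0.74, is the 1 filled point above 0.

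Muscle cells were compared with somite cells, from which skeletal muscle arises. Of 32 genes 23 were lower and 1 was higher, where 3.2% of all genes were lower and 3.49% higher. The median log2 difference was -1.70 over the cell cycle genes and -0.04 over all genes. The comparison had 2 libraries with 49 and 41 muscle cells against 3 with 32 to 65 somite cells. Of the mitotic genes 16 of 19 fell, and of the S phase genes 7 of 9.

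*TOP2A* held 932, 830 and 1274 CPM in the somite cells and 190.5 and 123.5 CPM in the muscle of E19 HSTS and E19 HS. The groups lay far apart, and the gene fell by 2.42 (SE 0.30, edgeR adjusted p = 9.9e-06). *KIF11*, the kinesin that pushes spindle poles apart, held 73.7, 73.4 and 142 CPM in somite cells and 15.9 and 7.72 CPM in muscle. It fell by 2.49 (SE 0.48, edgeR adjusted p = 0.0014). *MCM3* was seen with 23, 11 and 22 UMIs in somite cells and with 2 and 1 in muscle, and fell by 3.38 (SE 0.50). *PLK1*, the Polo kinase, was seen with 6, 3 and 19 UMIs in somite cells and with 1 and 0 in muscle, and fell by 3.73 (SE 0.996, edgeR adjusted p = 0.023). For these 2 genes the fitted size depends on the prior count, since almost no UMI remained in muscle.

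*CDK1* fell by 1.67 (SE 0.46), from 45.8, 34.8 and 72.7 CPM in somite cells to 21.2 and 2.57 CPM in muscle. *PCNA* fell by 1.58 (SE 0.42), from 88.4, 42.5 and 76.2 CPM to 14.1 and 25.7 CPM. *MCM2*, *TYMS*, *CCNB2*, *KIF23*, *KIF20A*, *CCNE1* and *CCNE2* lay below 0 without passing the test, between -0.72 and -2.03. The D cyclins stood on the other side. *CCND2* held 327.5, 344 and 276.5 CPM in somite cells and 439 and 453 CPM in muscle, and rose by 0.74 (SE 0.22, edgeR adjusted p = 0.042), a call that was lost in 8 of 12 alternatives, with adjusted p from 0.0094 to 0.32. *CCND1* held 81.9, 46.3 and 58.5 CPM in somite cells and 82.9 and 113 CPM in muscle, a log2 difference of 0.83 (SE 0.37, edgeR adjusted p = 0.22).

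The number of genes lower in muscle was 22 without E16 HS, where 3.5% of all genes were lower. Leaving out either E19 library left a single muscle library, which was assumed to vary like the other groups. The median log2 difference over the cell cycle genes was then -2.22 without E19 HSTS and -1.46 without E19 HS. With cells thinned to 3000 UMIs 13 of 30 genes tested were lower, where 1.69% of all genes were lower.

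Kinase inhibitors stood on the other side. *CDKN1C* held 471.5, 189 and 163 CPM in the somite cells and 2295 and 1791 CPM in muscle, and rose by 2.95 (SE 0.30, edgeR adjusted p = 5.3e-07). *CDKN1A*, an inhibitor induced in maturing muscle, was seen with 0, 1 and 0 UMIs in somite cells and with 52 and 21 UMIs in muscle, or 91.7 and 54 CPM, and passed the test (edgeR adjusted p = 0.00022). Outside muscle it did not exceed 3.86 CPM in any of the 6 groups. These were 2 of 9 brakes tested, with 0 lower. Of the further S phase genes 17 of 30 were lower and 0 higher, and of the further mitotic genes 17 of 27 were lower and 1, *JPT1*, was higher by 1.35 (SE 0.25).

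Mesenchyme and somite cells, both mesodermal, were compared in the same way. No cell cycle gene passed in either direction by edgeR or by DESeq2. Over all genes, 1.71% were higher in mesenchyme and 0.657% lower by edgeR, and 1.155% and 0.856% by DESeq2. The median log2 difference was -0.05 over the cell cycle genes and 0.10 over all genes. At an unadjusted p under 0.05, where the share of all genes was not counted, 2 were higher and 0 lower. These were *CCND1* and *CCND2*, at 0.78 (SE 0.29) and 0.54 (SE 0.19), with edgeR adjusted p of 0.23 and 0.18. *KIF23*, of the central spindle, came next at 0.39 (SE 0.22), and *MCM2*, *MCM3* and *ECT2* were at the bottom with -0.35, -0.33 and -0.31 (SE 0.33, 0.21 and 0.28). Without E16 HS the median over the cell cycle genes was 0.20. The standard errors do not show that the groups were alike.

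In erythroid cells the direction depended on the scale, because a few transcripts filled the libraries. The 10 leading genes of erythroid cells held 61.3%, 57.7% and 41% of their UMIs in the 3 libraries, and 4 of these 10, listed by identifier only, held 56.5%, 53.1% and 36.1%. In the other 5 groups the same 10 genes held 4.96% to 7.59%. Per 1000000 of all UMIs, the mitotic genes stood at 1163.5, 922 and 1910.1 CPM in erythroid cells. With the 10 leading genes taken out of the totals they stood at 3005.5, 2178 and 3236.5 CPM, beside 3956, 3262 and 3604.5 CPM in neural progenitors. In UMIs per cell they stood at 20.2, 16.7 and 26.7 in erythroid cells, 35.2, 26.6 and 35 in neural progenitors and 9.14, 5.02 and 19.2 in neurons.

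With trimmed-mean (TMM) scaling, 29 of 32 cell cycle genes were higher in erythroid cells than in the mean of the other 5 groups and 1 was lower, where 34.7% of all genes were higher and 27.9% lower. The median log2 difference was 1.15 over the cell cycle genes and 0.07 over all genes. Scaled to total UMIs, 0 were higher and 18 lower by edgeR, where 4.08% of all genes were higher and 72.8% lower. The median was -0.52 over the cell cycle genes and -1.54 over all genes. With the 10 leading genes removed, 22 were higher and 2 lower, where 17% of all genes were higher and 42.3% lower. The medians were then 0.55 and -0.51. Under all 3 scalings the cell cycle genes lay above the median of all genes, while their own direction did not hold.

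On the TMM scale *MCM5*, *KIF11* and *CCNB2*, a B cyclin, stood highest, at 1.98 (SE 0.15), 1.70 (SE 0.17) and 1.67 (SE 0.22). *TOP2A* stood at 0.59 (SE 0.16), *CDK1* at 1.49 (SE 0.17), *PCNA* at 1.13 (SE 0.16), *MCM2* at 0.73 (SE 0.20), *CCNE1* at 1.48 (SE 0.30) and *CCNE2* at 1.24 (SE 0.23). Scaled to total UMIs, *TOP2A* stood at -1.06, *CDK1* at -0.16 and *PCNA* at -0.55, so that none of these 3 has a direction free of the scale. *KIF20A* and *CCND2* did not pass on the TMM scale, at 0.30 (SE 0.23) and -0.06 (SE 0.14).

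*CCND1* was lower in erythroid cells under all 3 scalings. It held 4.98, 3.93 and 6.74 CPM in the erythroid cells, and 196, 163 and 210 CPM in neural progenitors. On the TMM scale it was lower by 2.64 (SE 0.23, edgeR adjusted p = 9.7e-10), that is 6.25-fold. Without the cells of the highest doublet scores the log2 difference was -4.79. *CCND3*, too low for the test between groups, was seen with 85, 33 and 61 UMIs in erythroid cells, of 140, 86 and 114 in all kept cells.

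The mix of D cyclins differed among groups. Of the D cyclin UMIs, *CCND1* made up 46.5%, 44% and 48.7% in the neural progenitors, with exact binomial intervals from 42.2 to 51.3%. It made up 21.8%, 20% and 15.6% in mesenchyme, and 6.89%, 4.10% and 5.18% in erythroid cells. The order of the 3 groups was the same in each library, and no intervals of different groups overlapped. *CCND2* made up nearly all of the rest. In endothelial-like cells *CCND1* held 51%, 56% and 48.6%, and in the tail bud-like cells of E16 HS it held 60% (55.6 to 64.2%).

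*CCND2* held 435, 401 and 413 CPM in mesenchyme, where the 3 libraries lay close together. *CCND1* held 121, 100 and 76.6 CPM there, with intervals that did not overlap between libraries, and E16 HS was the lowest. In neural progenitors E16 HS was not the lowest, with the 210 CPM given above against 163 CPM in E19 HS.

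**Figure D3:**
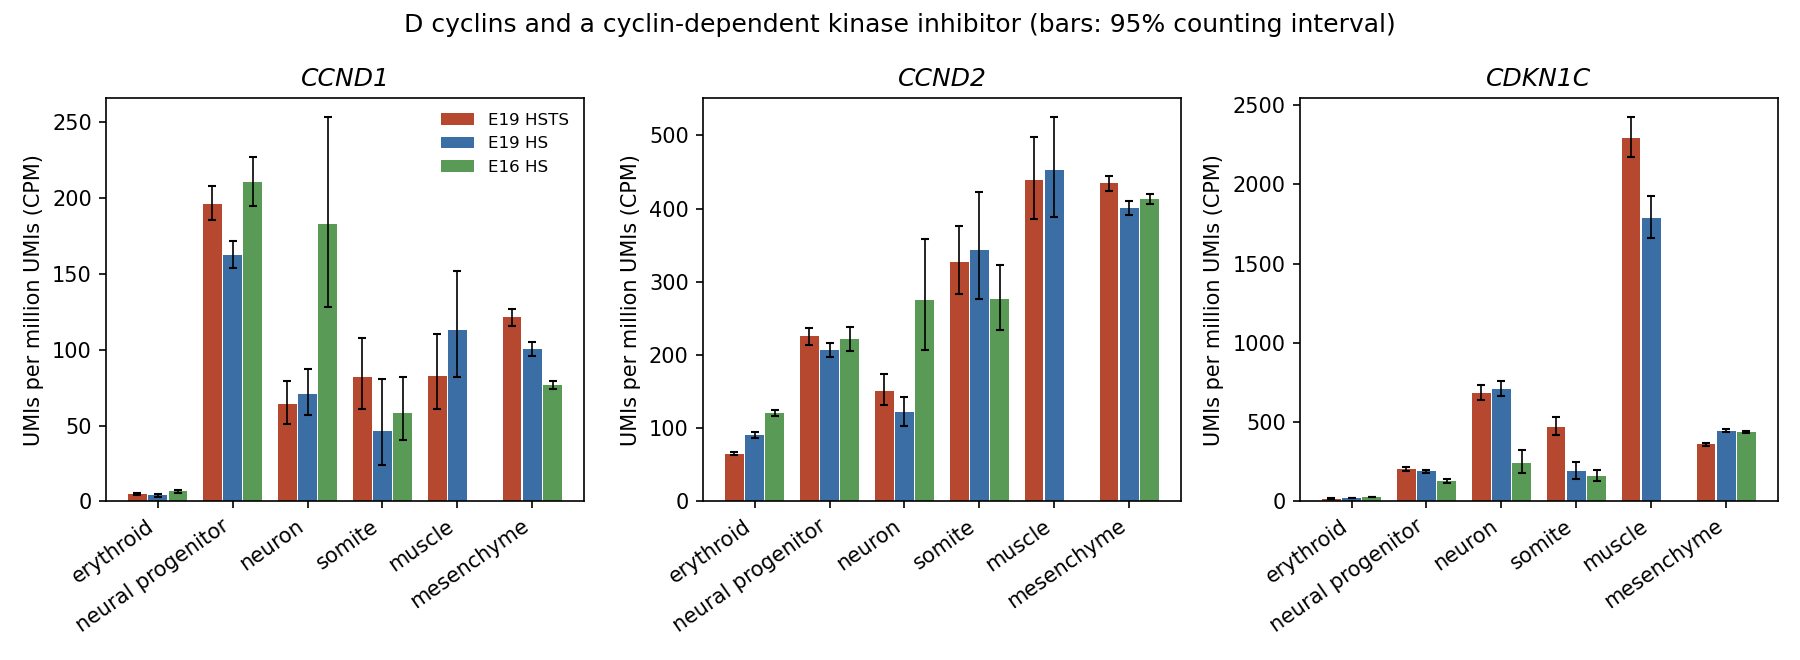
Expression of *CCND1*, *CCND2* and the kinase inhibitor *CDKN1C* as UMIs per 1000000 UMIs (vertical axes, each on its own scale) in 6 cell groups and 3 libraries by colour, with exact 95% counting intervals. *CCND1* is near 0 in erythroid cells, at 3.93 to 6.74 CPM, and *CDKN1C* is highest in muscle, at 1791 and 2295 CPM.

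E19 HSTS was set beside E19 HS to compare the breeds at 1 stage. No cell cycle gene differed by at least 1.5-fold in either direction, where 4.42% of the 12439 genes with enough UMIs were higher and 7.39% lower by that much. The median ratio was 1.15 over the 33 cell cycle genes and 0.963 over all genes. Of the 33 genes 27 lay above the median of all genes. Summed over all kept cells, mitotic genes held 2152 CPM in E19 HSTS and 1966 CPM in E19 HS, a ratio of 1.10 (1.09 to 1.10). S phase genes held 486 and 452 CPM, a ratio of 1.07 (1.06 to 1.09). In sums over all cells, fewer cells of a type and less RNA per cell cannot be told apart.

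*CCND3*, with 1.41 and 0.969 CPM, had the largest ratio at 1.45 (1.10 to 1.92), from few UMIs. *KIF11* held 66 and 47.1 CPM, a ratio of 1.40 (1.35 to 1.46), and *MCM4* held 56.1 and 42.3 CPM, a ratio of 1.33 (1.27 to 1.38). *CCND1*, *CCND2* and *CDC20*, the activator of the anaphase-promoting complex, were the lowest, at 0.847 (0.821 to 0.873), 0.876 (0.860 to 0.892) and 0.902 (0.872 to 0.932). Erythroid cells made up 26.7% of E19 HSTS and 12.8% of E19 HS. Without erythroid cells these 3 ratios were 1.09, 1.10 and 1.07, beside a median of 1.158 over all genes, so that they turned above 1 and still lay below that median. The parts of the erythroid share and of the levels within erythroid cells were not tested.

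*TOP2A* held 609 and 533 CPM, a ratio of 1.14 (1.13 to 1.16), *CDK1* 35.9 and 31 CPM, a ratio of 1.16 (1.10 to 1.22), and *PCNA* 44.7 and 36.3 CPM, a ratio of 1.23 (1.18 to 1.29). *MCM2*, with 12.1 and 11.2 CPM, had an interval that held 1 (0.996 to 1.18). *CCNE1* held 4.73 and 4.10 CPM and *CCNE2* 4.99 and 3.80 CPM, ratios of 1.15 (1.00 to 1.33) and 1.31 (1.14 to 1.51).

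Within cell groups the ratio of the mitotic sums was 1.26 in erythroid cells (1.24 to 1.28), 1.22 in neural progenitors (1.19 to 1.24) and 1.24 in mesenchyme (1.22 to 1.26). The median ratio over all genes in the same groups was 1.01, 1.15 and 1.17. Relative to that median, the mitotic sums were higher by 1.25-fold in erythroid cells and by 1.06-fold in both neural progenitors and mesenchyme. In neurons the ratio was 1.499 (1.39 to 1.62) and in muscle 1.98 (1.68 to 2.35), beside all-gene medians of 1.03 and 1.05. The erythroid marker list in neurons stood at 109.5 CPM in E19 HSTS and 5.51 CPM in E19 HS, with 2 and 5 of 8 markers at 0, and the muscle list in muscle at 5684.6 and 9038 CPM, with 0 and 1 of 10 markers at 0. The part of these markers in the ratios was not tested, and the muscle sums rested on 564 and 195 mitotic UMIs. Cardiomyocyte-like cells went the other way, with 1525.6 and 1801 CPM of mitotic genes and a ratio of 0.847 (0.788 to 0.911).

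Of the further lists, 2 of 30 S phase genes were at least 1.5-fold higher in E19 HSTS, *DSCC1* at 1.77 and *E2F8* at 1.60, and 0 lower. Over all genes 4.42% were higher and 7.39% lower by that much. Of 27 further mitotic genes 2 were higher, *NCAPD2*, a condensin subunit, at 1.63 and *NEK2*, a centrosome kinase, at 1.58, and 0 lower. Of 11 brakes with enough UMIs 4 were higher and 0 lower, among them *RBL2*, of the retinoblastoma family, at 1.79 (1.53 to 2.11) and *CDKN2D*, an inhibitor of CDK4 and CDK6, at 2.99 (1.71 to 5.48) from 74 UMIs in both libraries. *CDKN1C*, the brake with the most UMIs, held 276 and 370 CPM, a ratio of 0.746 (0.734 to 0.758). Without erythroid cells it held 485 and 505 CPM. On the TMM scale *E2F8*, *DSCC1*, *NCAPD2*, *NEK2* and *RBL2* stood higher in erythroid cells, by 0.89 to 4.19 on the log2 scale. The part of the erythroid share in these ratios was not tested.

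E16 HS was set beside E19 HS to compare the stages within the Hu sheep. Of 33 cell cycle genes 12 were at least 1.5-fold higher at day 16 and 0 lower, where 22.1% of the 12580 genes with enough UMIs were higher and 11.3% lower. The median ratio was 1.39 over the cell cycle genes and 1.17 over all genes. By role these were 2 of 5 G1 cyclins, 4 of 9 S phase genes and 6 of 19 mitotic genes. With TMM scaling, which shifts this comparison by 1.16-fold, 5 passed, and 12% of all genes were then higher. Mitotic genes held 2584 CPM in E16 HS against the 1966 CPM of E19 HS, a ratio of 1.31 (1.31 to 1.32), and S phase genes 624 against 452 CPM, a ratio of 1.38 (1.36 to 1.40).

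Kinesins led the list. *KIF20A*, which works with Polo kinase at the central spindle, held 16.3 CPM at day 16 and 7.74 CPM at day 19, a ratio of 2.11 (1.93 to 2.30). *KIF11* held 98.6 and 47.1 CPM, a ratio of 2.10 (2.02 to 2.17), and *KIF23* held 81.9 and 40.5 CPM, a ratio of 2.02 (1.94 to 2.10). *PRC1*, which bundles microtubules between the separating chromosomes, *CCND1* and *AURKB*, the Aurora kinase of centromeres, were the lowest, at 0.955 (0.923 to 0.989), 0.966 (0.938 to 0.995) and 0.988 (0.956 to 1.02). The mitotic genes thus spanned a range from 0.955 to 2.11 in the same cells.

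*TOP2A* held 613 and 533 CPM, a ratio of 1.15 (1.14 to 1.16), below the median of all genes. *CCND2* held 304 and 266 CPM, also a ratio of 1.15 (1.13 to 1.16), and for both genes TMM scaling turned the direction, to 0.995 and 0.991. *CDK1* held 46.3 and 31 CPM, a ratio of 1.495 (1.43 to 1.57), and *PCNA* held 61 and 36.3 CPM, a ratio of 1.68 (1.61 to 1.76). *MCM2*, with 12.1 and 11.2 CPM, had a ratio of 1.08 (0.998 to 1.18), and *CCND3* one of 1.04 (0.778 to 1.39). *CCNE1* held 7.15 and 4.10 CPM, a ratio of 1.74 (1.54 to 1.98), and *CCNE2* held 5.84 and 3.80 CPM, a ratio of 1.54 (1.35 to 1.76).

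**Figure D4:**
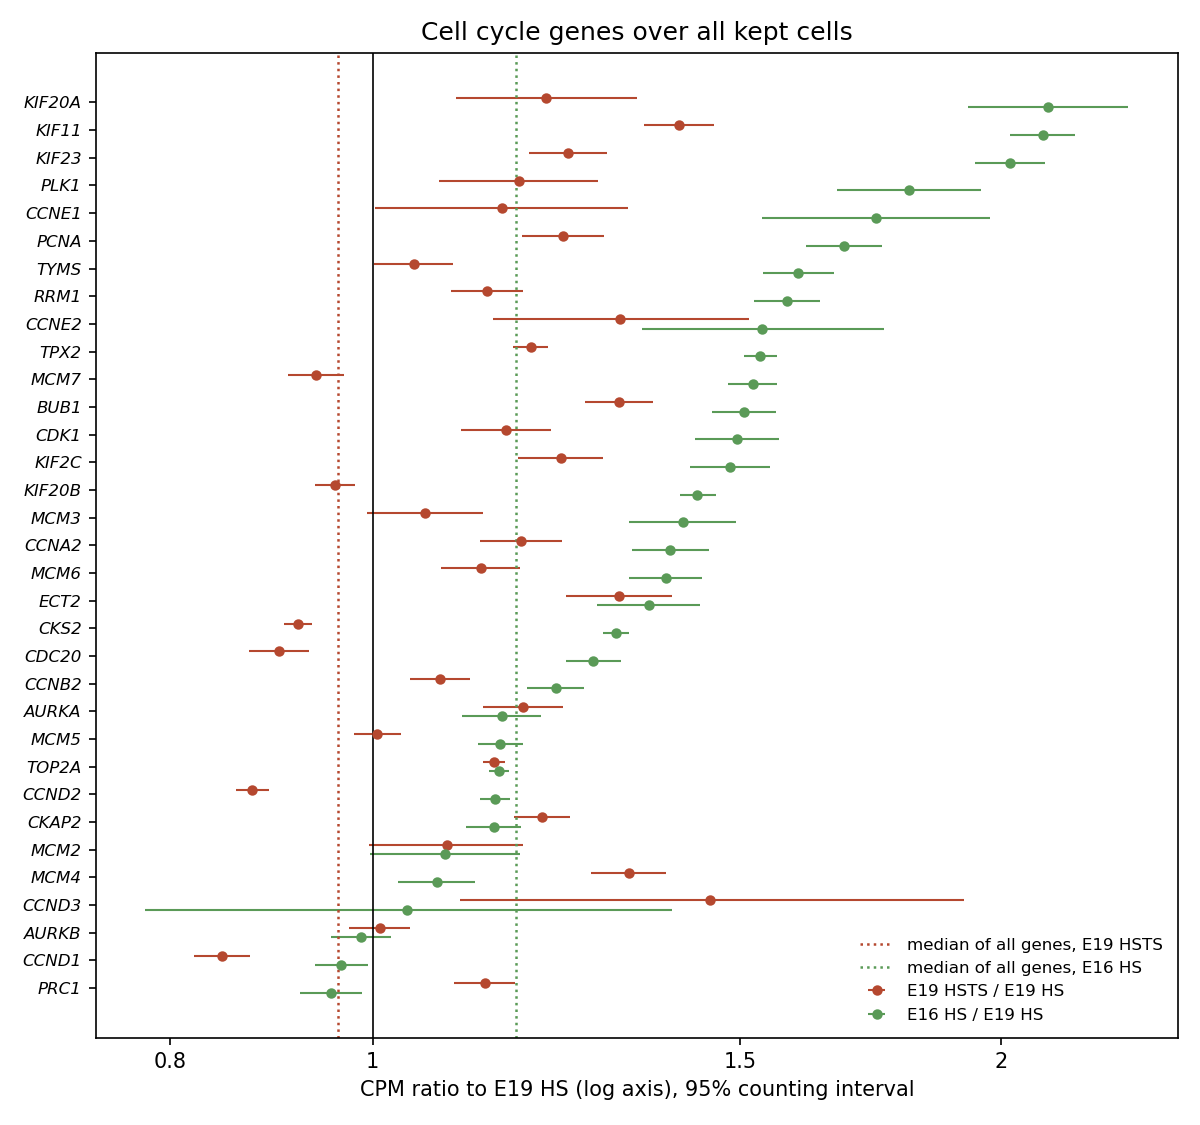
Ratio of UMIs per 1000000 UMIs to E19 HS over all kept cells (horizontal log axis) for the 33 cell cycle genes (vertical axis), E19 HSTS in red and E16 HS in green, with 95% counting intervals. Dotted lines mark the median ratio of all genes, 0.963 and 1.17. Green points reach 2.11 for *KIF20A*, and no red point passes 1.5.

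Within cell groups the ratio between the stages ranged widely, and the difference between groups was not tested. In erythroid cells the median ratio was 2.015 over the 33 genes and 1.84 over all genes, and 20 of the 33 lay above the latter. The mitotic sum there had a ratio of 2.07 (2.04 to 2.11). Mesenchyme markers in these erythroid cells stood at 100.5 CPM at day 16, with 4 of 10 in at least 10% of cells, and at 16.15 CPM at day 19, with 0 of 10, and their part in the ratio was not tested. The 10 leading erythroid genes held a smaller share at day 16, as given above, and relative to the median of all genes the mitotic sum was 1.13-fold higher. In neural progenitors the mitotic sums had a ratio of 1.11 (1.08 to 1.13) with an all-gene median of 1.12, and in mesenchyme a ratio of 1.01 (1.00 to 1.02) with a median of 1.11. In somite cells the ratio was 1.78 (1.63 to 1.94) with a median of 1.21, from 656 mitotic UMIs in the 32 somite cells of E19 HS.

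Single genes went apart within mesenchyme. *TOP2A* held 603 CPM there at day 16 and 771 CPM at day 19, a ratio of 0.781 (0.765 to 0.798), while *KIF11* held 105 and 58.9 CPM, a ratio of 1.79 (1.67 to 1.92). *CDK1* stood in between, at 42.3 and 42.1 CPM, a ratio of 1.00 (0.920 to 1.10), and *PCNA* held 63.2 and 41.6 CPM, a ratio of 1.52 (1.40 to 1.66). Of 32 genes with enough UMIs in mesenchyme 19 lay above the median of all genes, and in neural progenitors 18 of 31.

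Of the further mitotic genes 12 of 27 were at least 1.5-fold higher in E16 HS and 0 lower, among them *NCAPD2* at 2.45 (2.32 to 2.59), *RANGAP1* at 1.94 and *ANLN*, an anillin of the cleavage furrow, at 1.91. Of the further S phase genes 4 of 30 were higher and 0 lower. That share was smaller than the 22.1% of all genes that were higher, while 11.3% were lower. Among the 4 were *CDC45*, a part of the active replicative helicase, at 2.29 (2.14 to 2.45), and *BLM*, a repair helicase, at 1.68. Of 10 brakes 0 were higher and 3 lower, *CDKN2C* at 0.441 (0.332 to 0.583), *TOB1* at 0.465 (0.423 to 0.511) and *BTG1* at 0.663 (0.649 to 0.678). Of 12 cyclin D partners and E2F genes *CDK4*, the kinase of the D cyclins, was higher at 1.77 (1.65 to 1.90) and *E2F1* lower at 0.578 (0.453 to 0.736).

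The share of cells with mitotic transcripts was read after each cell was thinned to 3000 UMIs, which left out 1106, 1345 and 1317 shallower cells. At least 2 different mitotic genes were seen in 56.7% (55.7 to 57.8%), 51.9% (50.8 to 52.9%) and 75.6% (74.8 to 76.5%) of all cells. Unthinned, the shares were 71.6%, 66.1% and 86.6%. Neurons, which should lack these transcripts, gave 26% (46 of 177), 21.7% (42 of 194) and 56.5% (13 of 23), at a median depth of 6314, 5337.5 and 6653 UMIs. The E19 muscle shares of 28.9% and 23.1% lay within the intervals of the neurons of their library and were not distinguishable from that level.

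In the E19 libraries neural progenitors, mesenchyme and erythroid cells lay above the interval of the neurons. In E16 HS the neuron interval of 34.5 to 76.8% held the mesenchyme share and reached close to that of erythroid cells. Neural progenitors gave 68.2%, 65.9% and 82.3%, mesenchyme 61.8%, 53.9% and 74.5%, and erythroid cells 50.9%, 45.7% and 76.9%. E16 HS was the highest in each group. Of the erythroid UMIs 61.3%, 57.7% and 41% fell on the 10 leading genes. Here and below, thinning erythroid cells to equal totals thus did not match the depth of their other genes between groups or libraries. Its part in the erythroid shares was not tested. The mesenchyme share at day 16 was higher than in E19 HS although the summed CPM had a ratio of 1.01, so the share is not read as a higher level. Among cells with at least 2 mitotic genes, the median was 10, 9 and 8 mitotic UMIs in mesenchyme. The 10% of mesenchyme cells with the most mitotic UMIs held 42%, 43.5% and 31.9% of all of them. In the E19 neurons the same 10% held 73.7% and 66.3%.

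Mitotic transcripts were found together in the same cells. For pairs of mitotic genes, the number of thinned cells with both was set against the number that their separate shares give, as a description. The median ratio was 1.84, 1.77 and 1.29 in the erythroid cells, 1.75, 1.74 and 1.36 in neural progenitors, and 2.10, 2.43 and 1.58 in mesenchyme. Every one of the 170, 170 and 171 mitotic pairs in mesenchyme stood above 1. *PLK1* with *ECT2* was the highest in the mesenchyme of E19 HS, with 23 cells where 5.29 were computed.

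Pairs of S phase genes stood lower, with medians from 1.08 to 1.38. Pairs of an S phase and a mitotic gene had medians from 0.779 to 1.01. The lowest in the mesenchyme of E19 HS was *MCM3* with *CDC20*, with 6 cells where 23.8 were computed. D and E cyclins with mitotic genes had medians from 0.879 to 0.961. In each of the 9 combinations of group and library the mitotic pairs had the largest median of these 4 kinds.

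**Figure D5:**
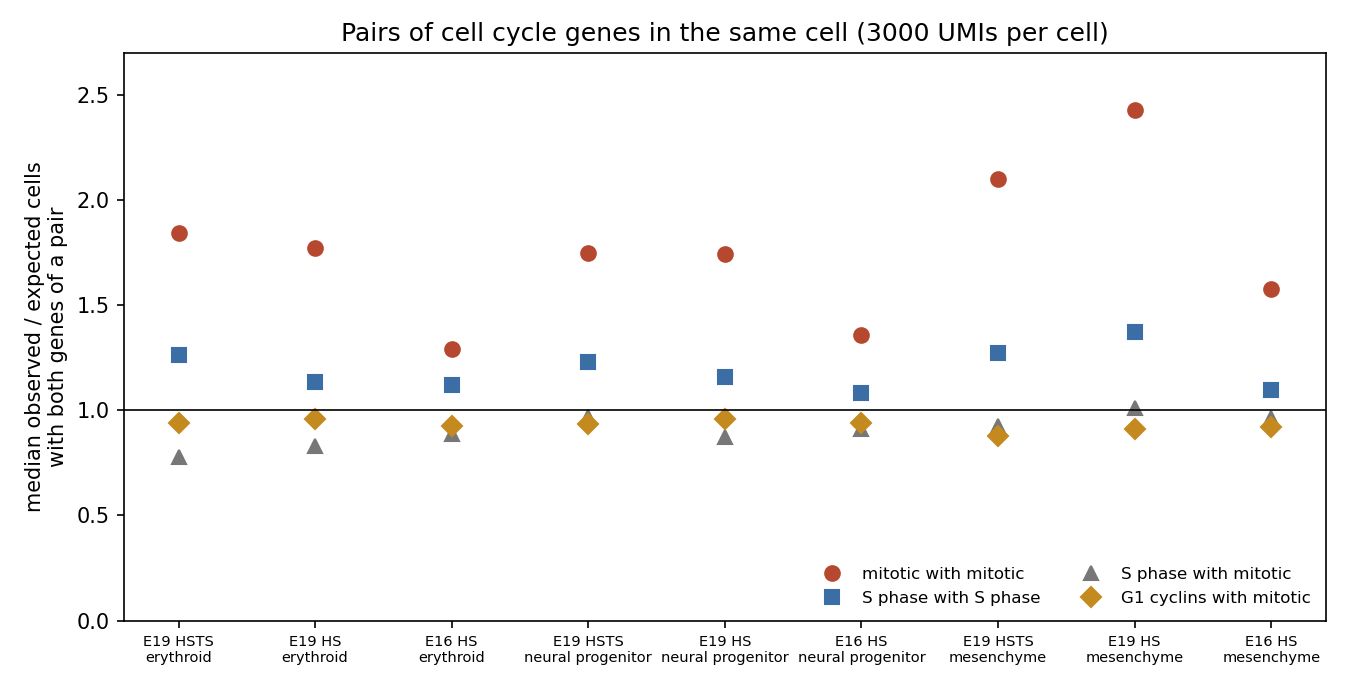
Median, over gene pairs, of the cells with both genes divided by the number computed from their separate shares (vertical axis), in 3 cell groups of 3 libraries (horizontal axis), after thinning to 3000 UMIs. Symbols and colours give the roles of the 2 genes. Mitotic pairs lie at 1.29 to 2.43, S phase pairs at 1.08 to 1.38, and pairs across S phase and mitosis at 0.779 to 1.01.

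Erythroid cells differed from mesenchyme in how S phase and mitotic transcripts met. Among erythroid cells with at least 2 mitotic genes, 16.8%, 15% and 33.2% also had at least 2 S phase genes. Among erythroid cells with no mitotic gene the shares were 28%, 20.4% and 47.65%. In mesenchyme the order was the other way round, with 52.6%, 46.3% and 52.8% among cells with mitotic genes and 33.5%, 23% and 38.6% among those without. In neural progenitors the shares were 51.9%, 42.3% and 52.7% with mitotic genes and 40.5%, 42.5% and 60% without. Their order differed between libraries, and the intervals overlapped in each. The intervals of the 2 kinds of cells did not overlap in any library of mesenchyme, nor in erythroid cells of E19 HSTS and E16 HS. Cells with mitotic genes were deeper before thinning, at a median of 20029 against 15470 UMIs in the erythroid cells of E19 HSTS and 8586 against 6737.5 UMIs in mesenchyme, and its part in the result was not tested.

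Mitotic expression was higher in the deepest erythroid cells than in the shallowest, while S phase expression was lower. From the shallowest to the deepest of 4 equal classes of cells by UMIs, mitotic genes went from 692.5 to 1798, from 518.5 to 1453 and from 1287 to 2565 CPM in the erythroid cells of the 3 libraries. S phase genes went from 341 to 258.5 CPM, from 291.5 to 223 CPM and from 507 to 446 CPM. The course was not steady. S phase genes were highest in the second class, at 396, 321.5 and 580.5 CPM. Mitotic genes dipped there to 611 CPM in E19 HSTS and 1190 CPM in E16 HS. In the mesenchyme of E19 HS mitotic genes went from 1160.2 to 3848 CPM and S phase genes from 419 to 532.5 CPM, and G1 cyclins from 471 to 533 CPM. S phase genes in mesenchyme went from 626 to 662 CPM in E19 HSTS and from 648 to 659 CPM in E16 HS.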

How the data were processed

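Whole embryos of 3 conditions, 1 library each, had been digested with collagenase, freed of red blood cells by lysis and captured with the 10x 3′ chemistry. Per the labels, the authors counted UMIs with Cell Ranger 6.1.2, against the Ovis_aries_genome assembly, and analysed them in R 4.1.2 with Seurat 4.1.1. The values used here are the raw counts as the authors deposited them, 107817481, 94754580 and 128271878 UMIs in 11114, 12064 and 12645 barcodes, HSTS first and day 16 last. A cell was kept if it had between 200 and 6000 genes, between 1000 and 30000 UMIs, and no more than 10% of them mitochondrial. No gene positions or sequences are given, since the reference at hand was of another assembly without matching identifiers.

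The cell cycle genes and all lists were chosen with earlier results of these data known. Groups were set from 14 marker lists. That rule of at least 3 markers was chosen after the files were seen and before the values of the cell cycle genes were. Libraries were compared by CPM ratios with exact 95% intervals among genes with at least 50 UMIs in both together. Groups were compared in edgeR 4.0.16 (R 4.3.3; glmQLFit and glmQLFTest, TMM scaling, Benjamini-Hochberg over all genes tested) on UMI sums of at least 20 cells, so that E16 HS muscle was left out. With library as a block, these p-values measure how the differences between groups vary among the libraries, with the spread shared over all groups. The 3 libraries were of 3 conditions, so the spread between embryos of 1 condition is not measured. DESeq2 1.42.0 was an alternative. Named in full were *TOP2A*, *CDK1*, *PCNA*, *MCM2*, the D and E cyclins and the 3 genes with the largest and smallest values in each comparison. Further genes of the lists, and *KIF11*, *KIF23*, *CDC20* and pairs shown beyond this, were picked after their values were seen. Counts were handled in Python 3.11.15 with numpy 2.4.6 and scipy 1.17.1.

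Scrublet (scanpy 1.11.5) marked 193, 0 and 198 cells as doublets. It did not work in E19 HS, so no cell was removed, and an alternative dropped the top 8% by score. On data simulated with counting error only, the ratio intervals held the true value for 95.5% and 97.5% of 200 changed genes in the 2 library comparisons. The spread between embryos was not simulated there, so these shares do not bear on it. In a simulated comparison of neurons with neural progenitors, over 10043 genes of which 200 were changed, 92% of 2.5-fold changes and 9% of 1.5-fold changes were recovered, with 0.0868% false calls. Only genes with enough UMIs in neurons could be changed there, and the counts were drawn from the fitted model. The shares thus do not bear on genes with few neuron UMIs or on spread outside that model. Scaling to total UMIs, and without 10 leading erythroid genes, was added after the data were seen.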

Additional observations from a re-analysis of the deposited data

Results flagged for a closer look

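Several genes had a ratio to E19 HS above 1 in 1 cell group and below 1 in another, each with a counting interval that excluded 1. With 1 library a condition the difference between the groups was not tested. The split at 1 depends on the scale, since the median ratio of all genes differed between groups. For E16 HS that median was 1.84 in erythroid cells, 1.21 in somite cells, 1.12 in neural progenitors, 1.11 in mesenchyme and 0.974 in neurons. For E16 HS, *TOP2A* stood at 2.96 in neurons and 0.781 in mesenchyme, *CCND1* at 2.58 in neurons and 0.764 in mesenchyme, and *AURKB* at 1.74 in erythroid cells and 0.708 in mesenchyme. *CKAP2*, a microtubule-associated gene, stood at 1.62 in erythroid cells and 0.933 in mesenchyme. Both *AURKB* and *CKAP2* thus lay below the median of all genes in both groups. *PRC1* stood at 1.92 in somite cells and 0.581 in neural progenitors, and *CDC20* at 2.31 in neurons and 0.877 in neural progenitors. *MCM5* stood at 2.26 in neurons and 0.598 in somite cells. For E19 HSTS, *CCND2* stood at 1.09 in neural progenitors and 0.722 in erythroid cells, below the medians of all genes of 1.15 and 1.01 in both. The E16 HS neurons numbered 23 cells.

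Barcodes under 1000 UMIs, left out of all comparisons, also held mitotic UMIs. Their 19 mitotic genes stood at 1875.5 CPM in E19 HSTS, 1766 CPM in E19 HS and 1904 CPM in E16 HS, beside 2152, 1966 and 2584 CPM in kept cells.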

How the results depend on the processing

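Of 172 alternative values of the summaries, 116 stayed within the spread set for them and 56 moved. No cell cycle gene was lower by 1.5-fold in any alternative between libraries. For E19 HSTS against E19 HS, 3 genes were higher by 1.5-fold without erythroid cells, 1 without the highest doublet scores and 1 with TMM scaling. Without erythroid cells the median ratio was 1.287 over the cell cycle genes and 1.158 over all genes. The share of all genes past the limit is not set beside these counts, so they do not set the cell cycle genes apart. The mitotic ratio was 1.07 with the stricter cell filter, 1.105 over all deposited cells, 1.25 without erythroid cells, 1.14 with TMM scaling, 1.26 without the 10 leading erythroid genes and 1.30 as a mean over the groups. The S phase ratio was 1.18, 1.12, 1.24 and 1.17 under the last 4. For E16 HS, 7 genes were higher without erythroid cells, 5 with TMM scaling and 3 at a 2-fold limit, read with the same limit. Without erythroid cells the medians were 1.278 over the cell cycle genes and 1.073 over all genes. The mitotic ratio was 1.305 with the stricter filter, 1.18 without erythroid cells, 1.34 without the highest doublet scores, 1.14 with TMM scaling, 1.22 without the leading genes and 1.47 as a mean over the groups. The S phase ratio was 1.398 over all deposited cells and as a mean over the groups, 1.279 without erythroid cells, 1.19 with TMM scaling and 1.277 without the leading genes. Over all deposited cells *CCND1* stood at 1.12, and the causes were not tested.

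Leaving out a library gave 16 to 31 genes lower in neurons and 8 to 22 lower and 0 to 1 higher in muscle. Among these fits, a smaller count lower went with a smaller share of all genes lower. The fall in count thus does not set the cell cycle genes apart. Without E19 HSTS or without E19 HS the muscle group was a single library, so those muscle counts are not interpreted. The 1 gene higher in muscle, *CCND2*, became 0 with at least 2 markers, the stricter filter, no high doublet scores, no library block and both other scalings, and 13 were lower after thinning. At least 4 markers left too few somite cells for a value. Without a filter on low counts 1 gene, against 0, was higher in mesenchyme. Without the library block 24 genes were lower in neurons and 18 in muscle, where 4.29% and 1.78% of all genes were lower. That block pairs the groups within each library. In erythroid cells, total UMIs turned *CCNB2* to -0.024, *CCNE1* to -0.14, *CCNE2* to -0.41, *CDK1* to -0.16, *KIF20A* to -1.32, *MCM2* to -0.94, *PCNA* to -0.55 and *TOP2A* to -1.06, with 0 higher and 18 lower. On that scale 72.8% of all genes were lower. Without the leading genes *TOP2A* stood at -0.016 and 2 cell cycle genes were lower, where 42.3% of all genes were lower. The share of cells with mitotic genes was 71.6%, 66.1% and 86.6% unthinned, 75.2%, 72.5% and 89.5% for at least 1 gene, 45.9%, 41.1% and 63.3% for at least 3, and 54.9%, 49.7% and 74.6% without the highest doublet scores. For E19 HSTS against E19 HS without erythroid cells *CCND1* stood at 1.09, *CCND2* at 1.10 and *CDC20* at 1.07, and for E16 HS with TMM scaling *CCND2* at 0.991 and *TOP2A* at 0.995.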
